A study of Mus musculus with 6 samples.

Results

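The major histocompatibility complex (MHC) genes and their helpers in antigen presentation were examined in CD11b-positive cells of mouse spinal cord after electroconvulsive seizures (ECS). They are the rows of the deposited table whose symbol begins with H2-, the mouse name of the MHC, together with Cd74, B2m, Ciita, Tap1, Tap2, Tapbp, Tapbpl, Cd80 and Cd86. The rule took 53 genes of 47719 in all, and no symbol occurred on more than 1 row. RNA came from Biozzi ABH mice, an inbred strain, at an age of 3 months. They had 3 daily sessions and were killed on the following day. Each group, control and ECS, had 3 libraries, and each library pooled 5 mice, so n counts pools. The control libraries are described as naive, whereas the treatment text speaks of sham sessions, so whether these mice were handled in the same way is not certain. No allele or transgene is named for either group.

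MHC molecules carry peptides to the cell surface, where T cells read them. Class I molecules pair a heavy chain with beta-2-microglobulin, are loaded with cytosolic peptides in the endoplasmic reticulum and are made by nearly every nucleated cell. Class II molecules are pairs of an alpha and a beta chain that are guided to endosomes by the invariant chain and are made mainly by B cells, dendritic cells and macrophages. Microglia, the macrophages that reside in brain and spinal cord, express little class II at rest and more when activated, and the class II transactivator Ciita acts with factors bound to an X box and a Y box upstream of class II genes.

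Upstream sequences are shown for 4 MHC chain genes, because the 3 class II genes among them hold GCAAC followed by ATTGG at a like spacing. These exact letters were not found so in the class I gene, and a site spelled otherwise would be missed. Each sequence is the 150 bases next to the transcript start, 5′ to 3′ on the gene's own strand. The sequences are from RefSeq on GRCm38.p6 and were kept clear of exons of the gene. Capitals mark GCAAC, the core letters of the X box; ATTGG or its reverse complement CCAAT, the core of the Y box; GAANNGAAA or its reverse complement, an interferon response element core; and GGGATTC, part of the kappaB site of class I promoters.
H2-Aa: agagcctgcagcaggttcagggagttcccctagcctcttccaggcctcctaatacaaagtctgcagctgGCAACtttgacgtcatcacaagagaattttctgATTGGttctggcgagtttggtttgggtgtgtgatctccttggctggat
H2-Eb1: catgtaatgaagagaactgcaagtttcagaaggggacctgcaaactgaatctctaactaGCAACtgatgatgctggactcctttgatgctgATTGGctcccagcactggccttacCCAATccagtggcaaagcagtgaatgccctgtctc
H2-Ob: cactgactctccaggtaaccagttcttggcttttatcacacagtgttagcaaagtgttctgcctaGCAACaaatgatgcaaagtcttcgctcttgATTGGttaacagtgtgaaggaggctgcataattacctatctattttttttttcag
H2-K1: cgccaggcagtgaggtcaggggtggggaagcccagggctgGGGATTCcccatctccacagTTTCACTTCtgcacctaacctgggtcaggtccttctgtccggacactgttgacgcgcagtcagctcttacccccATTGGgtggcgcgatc
These windows lie at chr17:34287824-34287973 (minus strand), chr17:34305717-34305866 (plus strand), chr17:34238753-34238902 (plus strand) and chr17:34000348-34000497 (minus strand). GCAAC began 81 bases before the end of the window in H2-Aa, 91 in H2-Eb1 and 85 in H2-Ob. ATTGG began 33, 32 and 30 bases after it on the same strand. In H2-K1 the kappaB letters began 110 bases and the interferon response letters 90 bases before the end, and a Y box core stood at 16. In the 250 bases upstream of 27025 genes, with both strands searched, ATTGG was found in 34.5%, GCAAC in 30.1%, GAANNGAAA in 6.34% and GGGATTC in 2.56%. GCAAC followed by ATTGG at 30 to 33 bases, a spacing chosen after these promoters were read, was found in 0.181%. Of 8 class II genes with an upstream window of 131 to 250 bases, 4 held this pair, H2-Eb2 being the fourth, and H2-DMa, H2-DMb1, H2-DMb2 and H2-Oa did not. These matches describe letters and show no binding. The table of promoters held 35 of the 53 genes.

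Expression was deposited as FPKM, which scales fragments to transcript length and to the size of the library, and values are given in the order of pools 1, 2 and 3 of each group. Their sum per library ranged from 729831 to 1009665, and the number of reads behind it cannot be read from FPKM. In ECS 1, 1580 tested genes were listed at 0, and in each of the others 448 to 806. All 8 microglia markers checked, Itgam (the gene of CD11b) among them, were above 0 in every library, and their summed level was 7436 to 10017 FPKM in control and 5880 to 9043 in ECS. In bulk RNA, fewer cells of a type and less RNA per cell cannot be told apart. Markers of other myeloid cells were present too: 13 of 13 neutrophil markers were tested, with a summed level of 14546 to 26047 FPKM in control and 11156 to 14490 in ECS. All 13 had a negative log2 fold change of ECS against control, beside 5749 of all 11315 genes tested. Their median was -0.51, beside -0.01 over all genes tested. By limma 0 of the 13 were called, as for 0% of all genes tested. Markers of cells that are not myeloid also varied between libraries. Summed erythroid markers were at 2231 to 32810 FPKM in control and 7208 to 77318 in ECS. Endothelial and mural markers were at 49.8 to 480 in control and 50.4 to 362 in ECS. Oligodendrocyte markers were at 73.3 to 183 in control and 66.4 to 226 in ECS. Within the groups, these sums were lowest in control 1 and ECS 3. The part of all these cells in the values that follow was not tested.

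Of the 53 genes, 29 averaged 1 FPKM or more and were tested, 19 averaged 10 FPKM or more, and 18 were listed at 0 in every library. The transcripts of B2m (rank 7 among all rows by mean FPKM) and Cd74 (rank 42) were by far the most abundant. Next came H2-Ab1, H2-D1 and H2-Aa at ranks 347, 463 and 532. No gene of the set was called higher or lower in ECS at an adjusted p under 0.05 by limma on log2(FPKM + 1), where 0% of 11315 genes tested was called in either direction. At an unadjusted p under 0.05, 1 of the 29 was lower and 0 were higher, beside 1.94% and 1.71% of all genes tested. Of the 29 tested, 14 had a positive and 15 a negative log2 fold change, with a median of -0.01, and the median over all genes tested was also -0.01. The 95% intervals extended from their centre by a median of 0.99 on the log2 scale, or 1.99-fold, and by less for abundant genes such as H2-D1 and B2m, so the size of change that could be seen with these pools differed between genes.

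**Figure D1:**
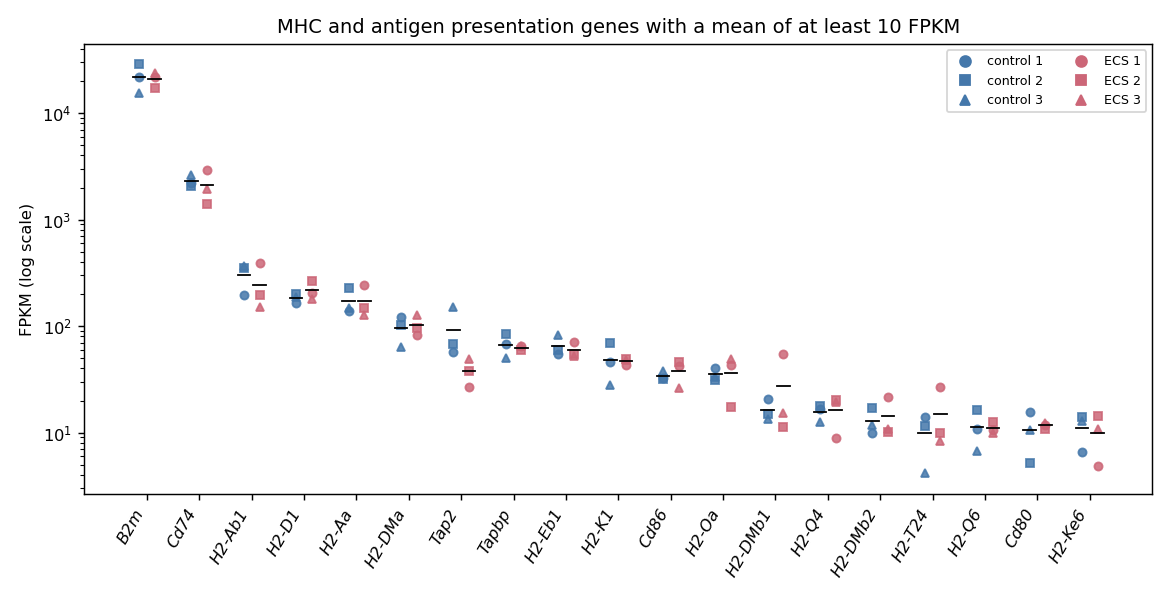
FPKM (log scale) of the 19 genes that averaged 10 FPKM or more, ordered by that mean, with 1 symbol per library and a black line at each group mean (n = 3). B2m and Cd74 stand above all others, and the control and ECS libraries overlap for every gene except Tap2.

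The classical class I heavy chains, which present peptides to cytotoxic T cells, were H2-D1 and H2-K1 together with the transcribed pseudogene H2-K2. H2-D1 (chromosome 17, 35262730 to 35267499, plus strand, positions from GENCODE M21 on GRCm38) was at 166, 199.7 and 186 FPKM across control pools 1 to 3 and 205, 266 and 179 across ECS pools 1 to 3. ECS 2 was highest, and ECS 3 lay below control 2 and control 3. The log2 fold change was 0.22 ± 0.24 (SE), with a 95% interval of -0.34 to 0.77, and it was 0.063 without ECS replicate 2 and 0.35 without ECS replicate 3. H2-K1 (chromosome 17, 33996017 to 34000347, minus strand) was at 45.9, 69.0 and 27.8 FPKM across the control pools and 42.7, 49.3 and 48.5 across the ECS pools. The control libraries of H2-K1 spread from below to above all ECS libraries, and the log2 fold change was 0.07 ± 0.36 (SE), with an interval of -0.78 to 0.91. On this scale per length, H2-D1 was between 2.89 and 6.69 times as abundant as H2-K1 in every library. H2-K2 was at 3.18, 0.452 and 0 FPKM across the control pools and 5.07, 4.16 and 1.30 across the ECS pools, so the groups overlapped. The median log2 fold change of these 3 genes was 0.22, beside -0.01 over all genes tested. Heavy chain genes differ between mouse strains and resemble one another, the reference is of strain C57BL/6J, and how reads of Biozzi ABH alleles were divided among them was not tested.

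The light chain gene B2m, whose protein every class I molecule needs, was at 21891, 28637 and 15529 FPKM across control pools 1 to 3 and 21742, 17143 and 23961 across ECS pools 1 to 3. The control libraries held both the highest and the lowest value. The means were 22019 ± 6555 and 20949 ± 3478 (SD, n = 3 each), and the log2 fold change was -0.04 ± 0.28 (SE), with an interval of -0.69 to 0.61. B2m exceeded the sum of H2-K1 and H2-D1 by 54.4 to 106.6 times per length, with no separation of the groups. The effect of Biozzi ABH alleles on this ratio was not tested either.

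Peptides for class I are cut by the proteasome, carried into the endoplasmic reticulum by the transporter Tap1-Tap2 and loaded with help of tapasin, the product of Tapbp. Tap2 (chromosome 17, 34203527 to 34216321, plus strand) was at 57.7, 67.9 and 151 FPKM across control pools 1 to 3 and 26.7, 38.2 and 49.4 across ECS pools 1 to 3. It was the only gene of the set whose groups did not overlap: every ECS library lay below every control library, and control 3 stood well above the others. The groups failed to overlap with lower values in ECS for 3.79% of all genes tested and with higher values for 3.70%, against 1 and 0 of these 29. The log2 fold change was -1.16 ± 0.43 (SE), with an interval of -2.16 to -0.16, a limma unadjusted p of 0.0285 and an adjusted p of 1.00, so Tap2 was not called. Without control replicate 3 the log2 fold change was -0.74 with a limma unadjusted p of 0.0821, and the unadjusted p was 0.0905 without ECS replicate 1 and 0.0570 without ECS replicate 2.

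Tap1, the partner subunit (chromosome 17, 34187553 to 34197225, plus strand), was lower in level and did not follow Tap2. It was at 7.64, 4.66 and 5.87 FPKM across the control pools and 4.20, 9.23 and 12.7 across the ECS pools, so that ECS 1 lay lowest and ECS 3 highest. The log2 fold change was 0.37 ± 0.46 (SE), with an interval of -0.72 to 1.46, and it was 0.77 without ECS replicate 1 and 0.069 without ECS replicate 3. The ratio of Tap2 to Tap1, a measure per length, was 7.56, 14.6 and 25.7 across control pools 1 to 3 and 6.36, 4.14 and 3.88 across ECS pools 1 to 3. All control libraries were above all ECS libraries in this ratio. The exact permutation test, two-sided, gave p = 0.1, the smallest value that 3 against 3 allows, and 0.9 after Benjamini-Hochberg adjustment over 9 ratios, all chosen after the values were seen. Reads were not necessarily assigned by strand: Tap1 overlaps Psmb9 on the other strand (2.22 to 8.53 FPKM), and Tap2 overlaps Gm15821 (0 to 1.86 FPKM) and Gm20496, listed at 0 in every library. The deposited locus of Tap2 also spans Psmb8, the gene of an immunoproteasome subunit, which was at 2.82 to 10.2 FPKM in control and 8.02 to 32.0 in ECS.

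**Figure D2:**
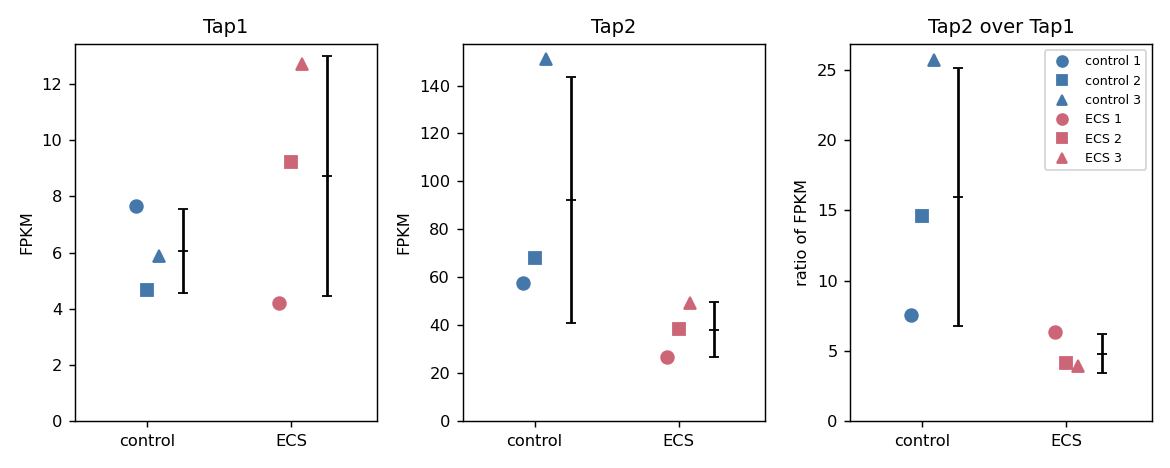
FPKM of Tap1 and of Tap2 and the ratio of the 2 in each library, with mean and SD of each group beside the points (n = 3). Tap2 and the ratio are lower in all 3 ECS libraries than in any control library, and Tap1 overlaps between the groups.

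Tapbp varied 1.68-fold between libraries, at 67.5, 83.5 and 49.8 FPKM across the control pools and 64.9, 59.2 and 64.7 across the ECS pools, and the log2 difference was -0.06 ± 0.27 (SE), with an interval of -0.70 to 0.58. Tapbpl, which encodes a tapasin-related peptide editor, was at 2.80, 2.77 and 3.30 FPKM in control, listed at 0 in ECS 1, and at 2.28 and 4.09 in ECS 2 and ECS 3. The log2 fold change of Tapbpl was -0.63 ± 0.67 (SE), with an interval of -2.19 to 0.94, and it was 0.049 without ECS replicate 1. The median log2 fold change of the 4 peptide loading genes was -0.34, beside -0.01 over all genes tested, and Tap1 alone was positive. This median rests in part on Tapbpl and thus on its 0 in ECS 1.

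Nonclassical class I genes encode heavy chains of limited variety that serve natural killer and other innate-like receptors. Of 28 such rows, 9 were tested, and 15 were listed at 0 in all libraries: H2-Bl, H2-M1, H2-M5, H2-M6-ps, H2-M9, H2-M10.1, H2-M10.2, H2-M10.3, H2-M10.4, H2-M10.5, H2-M10.5-ps1, H2-M10.6, H2-M11, H2-Q3 and H2-T3. The most abundant were H2-Q4, H2-T24 and H2-Q6. H2-Q4 was at 16.6, 17.6 and 12.5 FPKM across the control pools and 8.89, 20.3 and 19.4 across the ECS pools, where ECS 1 was the lowest of all 6. H2-T24 was at 14.0, 11.5 and 4.13 FPKM across the control pools and 26.9, 9.81 and 8.27 across the ECS pools, and here ECS 1 was the highest of all 6. H2-Q6 was at 10.8, 16.3 and 6.74 FPKM across the control pools and 10.5, 12.5 and 10.003 across the ECS pools, so the ECS values fell inside the control range. H2-Q7, a close relative of H2-Q6, had its highest value in control 2 (16.8 FPKM) and its lowest in control 3 (3.25), as H2-Q6 did.

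The other tested genes of this class were lower, with means under 10 FPKM. H2-T23, the gene of the Qa-1 molecule, varied least, from 2.89 to 4.26 FPKM over the 6 libraries. H2-Q5 was listed at 0 in control 3 and reached 11.7 FPKM in ECS 2, and H2-T10 ranged from 0.307 in control 1 to 4.91 in ECS 1. H2-M3, which presents formylated peptides, was listed at 0 in control 2 and ECS 1 and lay between 1.56 and 2.03 FPKM in the others. H2-Q2 was at 4.85 FPKM in control 2 and at most 0.694 elsewhere. H2-Q10, H2-M2, H2-Q1 and H2-T22 had means under 1 FPKM and were not tested. The 9 tested genes had 5 positive and 4 negative log2 fold changes, from -0.65 to 0.93, with a median of 0.04, and no group pair was free of overlap. H2-T22, H2-T23 and H2-T24 share 1 deposited locus, so the division of reads among them is uncertain.

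Classical class II chains present peptides to helper T cells. H2-Aa and H2-Ab1 encode the alpha and beta chain of the A molecule, and H2-Eb1 the beta chain of the E molecule. H2-Ab1 (chromosome 17, 34257689 to 34269419, plus strand) was at 197, 349 and 364 FPKM across control pools 1 to 3 and 390.2, 196 and 150.1 across ECS pools 1 to 3. ECS 1, control 3 and control 2 were high, and control 1, ECS 2 and ECS 3 were low, so the split ran across the groups. The log2 fold change was -0.37 ± 0.41 (SE), with an interval of -1.34 to 0.60, and it was -0.77 without ECS replicate 1 and -0.079 without ECS replicate 3. H2-Aa (chromosome 17, 34282744 to 34287823, minus strand) was at 138, 226 and 149 FPKM across the control pools and 243, 149 and 126 across the ECS pools. ECS 1 and control 2 were high and the other 4 libraries close together, and the log2 fold change was -0.01 ± 0.33 (SE), with an interval of -0.78 to 0.77. H2-Eb1 (chromosome 17, 34305867 to 34316674, plus strand) was at 54.8, 59.3 and 81.6 FPKM across the control pools and 71.3, 55.0 and 51.8 across the ECS pools. Its highest values were in control 3 and ECS 1, and the fitted log2 difference was -0.13 ± 0.28 (SE), with an interval of -0.77 to 0.52.

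All 3 of these genes were lowest in ECS 3, and their median log2 fold change was -0.13. H2-Eb2 was at most 0.454 FPKM, and H2-Ea-ps, the gene of the E alpha chain that is a pseudogene in the reference strain, was listed at 0 in every library. Summed over the class, classical class II transcripts were at 390.1, 634 and 594 FPKM across control pools 1 to 3 and 705, 399.8 and 328 across ECS pools 1 to 3. The control mean was 539 ± 131 and the ECS mean 478 ± 199.9 (SD, n = 3 each), a difference smaller than either SD.

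Cd74 encodes the invariant chain that blocks the class II groove until the endosome is reached. Cd74 was at 2187, 2056 and 2639 FPKM across control pools 1 to 3 and 2937, 1406 and 1942 across ECS pools 1 to 3. ECS 1 was the highest and ECS 2 the lowest of all 6, and the log2 fold change was -0.19 ± 0.30 (SE), with an interval of -0.88 to 0.50. Cd74 exceeded the sum of H2-Aa, H2-Ab1 and H2-Eb1 by 3.24 to 5.92 times per length, and the groups overlapped in this ratio. The effect of Biozzi ABH alleles on the ratio was not tested. Ciita, the transactivator of Cd74 and of the class II chains, was listed at 0 in control 2, ECS 1 and ECS 2 and reached 0.712 FPKM in ECS 3. The library with the most class II transcripts, ECS 1, thus listed none of it. A 0 there says little, because Ciita averaged 0.208 FPKM and ECS 1 had the most tested genes listed at 0. Ciita and Dexi overlap on opposite strands, and Dexi was at 5.59 to 39.5 FPKM.

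The nonclassical class II genes encode the editors of peptide loading: H2-DM (H2-DMa with H2-DMb1 or H2-DMb2) exchanges the invariant chain fragment for peptide, and H2-DO (H2-Oa with H2-Ob) restrains it. H2-DMa was at 122, 102 and 64.2 FPKM across the control pools and 83.0, 95.6 and 128 across the ECS pools, with a log2 fold change of 0.12 ± 0.32 (SE). H2-DMa overlaps Brd2 on the other strand, which was at 1223 to 3004 FPKM. How reads were divided between H2-DMa and Brd2 was not tested, so the values of H2-DMa are uncertain. H2-DMb1 was at 20.6, 14.8 and 13.5 FPKM across the control pools and 55.2, 11.3 and 15.4 across the ECS pools. ECS 1 stood apart, and the other ECS libraries lay within the control range or below it. The log2 fold change was 0.40 ± 0.58 (SE), and it was -0.26 without ECS replicate 1. H2-DMb2 was at 9.90, 17.1 and 11.8 FPKM across the control pools and 21.7, 10.1 and 10.9 across the ECS pools, highest in the same 2 libraries as H2-Aa.

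H2-Oa was at 40.8, 31.4 and 33.2 FPKM across the control pools and 43.4, 17.3 and 48.9 across the ECS pools, and H2-Ob at 7.89, 7.81 and 4.93 across the control pools and 1.20, 5.03 and 5.86 across the ECS pools. The 2 chains did not move together: ECS 1 was second highest for H2-Oa and lowest for H2-Ob. The log2 fold change of H2-Ob was -0.78 ± 0.54 (SE), with an interval of -2.04 to 0.48, and that of H2-Oa -0.07 ± 0.42 (SE). For H2-Ob it was -0.27 without ECS replicate 1 and -1.09 without ECS replicate 3. H2-Oa was between 3.43 and 36.0 times as abundant as H2-Ob per length, the highest ratio being in ECS 1. The 5 genes had a median of 0.09, with 3 positive and 2 negative.

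**Figure D3:**
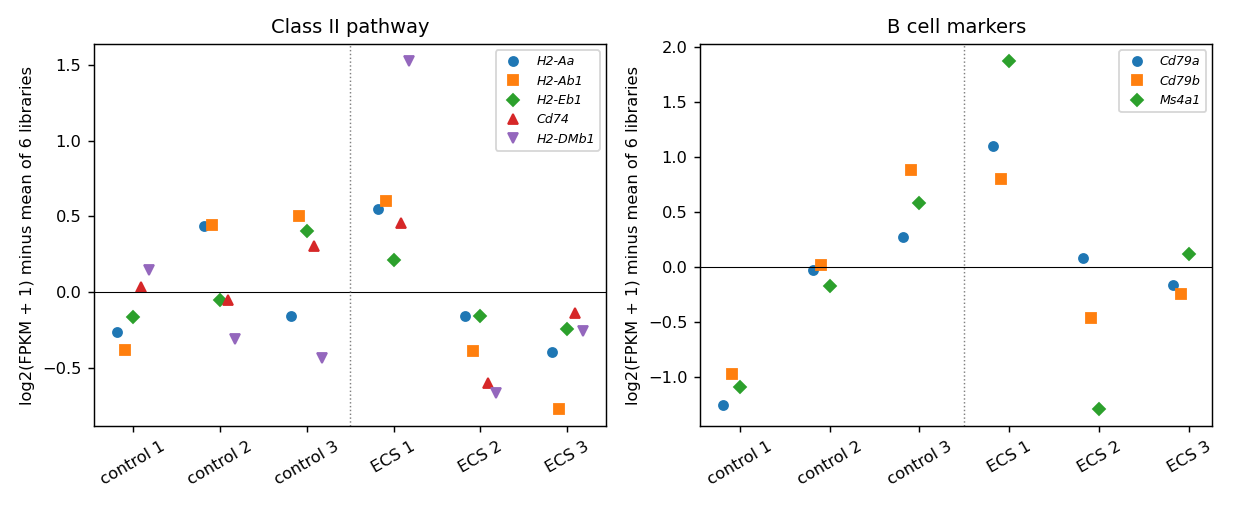
Levels of class II pathway genes (left) and of B cell markers (right) by library, as log2(FPKM + 1) minus the gene's mean over the 6 libraries, with 1 symbol per gene. H2-Aa, H2-Ab1, Cd74 and H2-DMb1 were highest in ECS 1, where Cd79a and Ms4a1 were highest too. H2-Eb1 and Cd79b were highest in control 3. Of the tested class II genes not drawn, H2-DMb2 was highest in ECS 1, H2-DMa and H2-Oa in ECS 3, and H2-Ob in control 1. H2-Ob was lowest in ECS 1. Of the B cell markers not drawn, Pax5 was highest in ECS 1, Ebf1 in control 3 and Cd22 in control 2.

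B cells, dendritic cells and macrophages of the meninges also make class II, and their markers varied between libraries. Of 8 B cell markers 6 were tested, and Ighm and Igkc were listed at 0 in every library. Their mean log2(FPKM + 1) was 0.93, 2.18 and 2.26 across control pools 1 to 3 and 3.10, 1.46 and 1.92 across ECS pools 1 to 3. By this measure control 2, control 3 and ECS 1 were highest for B cell markers. The same libraries were highest for summed classical class II chains. By summed level the B cell markers did not give this order, at 53.3 FPKM in control 3 and 62.7 in ECS 3. Cd74 was lower in control 2 than in control 1, and summed nonclassical class II transcripts were highest in ECS 3. By mean log2(FPKM + 1), control 2, control 3 and ECS 1 were also highest for the immunoproteasome genes, at 4.93, 4.84 and 4.73 against 4.15 to 4.58 elsewhere. By summed level these genes were instead lowest in ECS 1, at 285 FPKM against 338 to 421 elsewhere. The match by mean log2(FPKM + 1) was thus not particular to B cell markers, and its cause was not tested. The summed level of the B cell markers was 11.8 to 132 FPKM in control and 30.2 to 708 in ECS. Pax5 gave 652 of this in ECS 1, against at most 1.71 in the other libraries. It also raised the mean log2(FPKM + 1) of ECS 1. Cd79a, a chain of the B cell receptor complex, was at 4.86, 12.8 and 15.9 FPKM across the control pools and 29.1, 13.8 and 11.5 across the ECS pools. Of 10 dendritic cell markers 9 were tested and Clec9a was listed at 0 throughout, with a summed level of 95.2 to 124.6 FPKM in control and 126 to 259 in ECS, of which Clec10a gave 213 in ECS 1. By mean log2(FPKM + 1) the dendritic cell markers were instead lowest in ECS 1, at 2.22 against 2.52 to 2.89 in the other libraries. All 11 markers of border-associated macrophages were tested, with a summed level of 139 to 195 FPKM in control and 217 to 656 in ECS, of which Pf4 gave 427 in ECS 2 and 117 in ECS 1. Of these 11 genes, 6 had a positive and 5 a negative log2 fold change, Mrc1 and Stab1 among the negative ones. Of the 9 tested dendritic cell markers, 5 were positive and 4 negative. The groups did not overlap, with higher values in ECS, for Cbr2 of the 11 and for Clec10a and Xcr1 of the 9. This held for 3.70% of all genes tested, and Cbr2, Clec10a and Xcr1 were not called. The part of these cell types in the class II values was not tested.

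The costimulatory ligands Cd80 and Cd86 give T cells the second signal through CD28. Cd86 was at 32.4, 31.6 and 37.9 FPKM across control pools 1 to 3 and 41.8, 45.8 and 26.3 across ECS pools 1 to 3. ECS 1 and ECS 2 were above and ECS 3 below all control libraries, and the log2 fold change was 0.12 ± 0.30 (SE), with an interval of -0.59 to 0.84. Cd80 was at 15.6, 5.23 and 10.7 FPKM across the control pools and 11.7, 10.9 and 12.4 across the ECS pools, inside the control range, with a log2 fold change of 0.25 ± 0.43 (SE). Cd86 was 2.07 to 6.04 times as abundant as Cd80 per length. H2-Ke6, which lies in the MHC region but encodes a dehydrogenase and no MHC chain, was at 6.51, 14.0 and 12.9 FPKM across the control pools and 4.83, 14.3 and 10.8 across the ECS pools, and H2-Pa and H2-Pb, pseudogenes, were listed at 0.

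**Figure D4:**
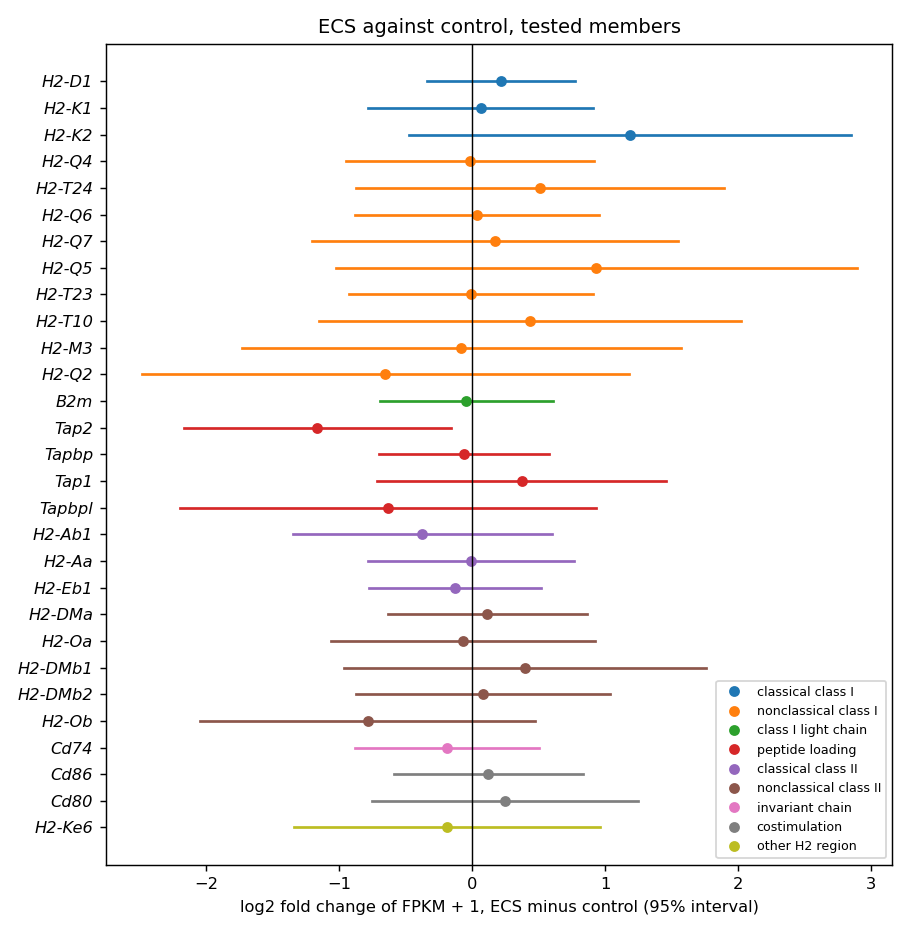
Log2 fold change of FPKM + 1, ECS minus control, for the 29 tested genes, coloured by class, with 95% intervals from limma. The interval of Tap2 is the only one that leaves out 0, and none of the 29 passed the adjusted threshold.

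Other genes of the 2 pathways were not called either, and in each of the 5 lists that follow 0 genes had a limma unadjusted p under 0.05. Of 8 class II processing genes 0 were called by limma, with 3 positive and 5 negative log2 fold changes and a median of -0.01. Among them the endosomal protease genes Ctsd, Lgmn and Ctss had log2 fold changes of -0.02 ± 0.24, -0.0032 ± 0.29 and -0.19 ± 0.25 (SE). March1, the gene of a ubiquitin ligase that removes class II from the surface, was at 2.45, 4.40 and 4.85 FPKM across the control pools and 8.40, 2.09 and 2.82 across the ECS pools. Its 3 highest values were in the libraries highest in summed classical class II chains. March1 was named for this match after its values were seen.

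Of 7 genes for class I peptide loading 0 were called, with 2 positive and 5 negative values and a median of -0.03, and the chaperone genes Hspa5, Calr and Pdia3 had log2 fold changes of -0.03 ± 0.26, 0.36 ± 0.36 and -0.15 ± 0.25 (SE). Of 5 immunoproteasome genes 0 were called, with 2 positive and 3 negative values and a median of -0.28. The activator subunit genes Psme1 and Psme2 had log2 fold changes of -0.39 ± 0.23 and 0.26 ± 0.52 (SE), and the subunit gene Psmb10 -0.28 ± 0.38 (SE). Psme1, alone of these 5, was lower in every ECS library than in any control library, as for 3.79% of the genes tested. Of 13 tested genes that regulate MHC transcription 0 were called, with 8 positive and 5 negative values and a median of 0.09. The interferon response factor gene Irf1 was at 0.05 ± 0.31, the interferon gamma receptor gene Ifngr1 at 0.09 ± 0.26 and the Y box factor gene Nfyc at 0.11 ± 0.45 on this log2 scale (SE). Nlrc5, the class I transactivator, was at most 0.906 FPKM and was not tested. Of 8 tested costimulation and checkpoint genes 0 were called, with 3 positive and 5 negative values and a median of -0.11. The checkpoint gene Vsir, the maturation marker gene Cd83 and the adhesion gene Icam1 had log2 fold changes of -0.11 ± 0.28, -0.11 ± 0.24 and -0.20 ± 0.25 (SE). The median over all genes tested, for comparison, was -0.01.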

How the data were processed

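RNA of CD11b-selected spinal cord cells was sequenced in 6 libraries. Poly(A) libraries were made from 100 ng of RNA, per the labels' protocols. The authors deposited FPKM for each gene and library. Per the submitters' processing notes, TopHat2, Cufflinks and Cuffnorm were used with GRCm38. Tool versions, the annotation, strandedness and any further scaling were not given in the sources used here. A scan of low values for whole-read steps placed at most 20.4% within 0.1 of a whole multiple, so reads were not recovered and no counting interval is given. Of 125 ribosomal and respiratory chain genes, 13 were listed at 0 in some library, so an exact 0 can be a failed estimate. The table held 27 symbols that had been turned into dates, and GENCODE M21 names were used for them by gene ID. The deposited loci of all 53 members overlapped their GENCODE genes.

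The analysis used log2(FPKM + 1), a scale that understates changes of low genes. The 11315 genes that averaged 1 FPKM or more entered a two-sided limma test (limma 3.58.1, R 4.3.3; trended variance) of ECS minus control. P-values were adjusted by Benjamini-Hochberg over all of them, with a threshold of 0.05. The procedure was tested on simulated data. Members and gene lists were chosen with earlier results of these data known. A marker gene is not reported here and was left out of its list. Genes are named by rule: members with a mean of at least 10 FPKM, the helpers, and the 3 most abundant genes of each pathway list. Ratios of genes were compared with the exact permutation test in scipy 1.17.1. Promoter sequences came from RefSeq (GRCm38.p6). Figures were drawn with matplotlib 3.10.9.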

Additional observations from a re-analysis of the deposited data

How the results depend on the processing

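In limma, 0 genes were higher and 0 lower in ECS under every alternative run, and 0 members were called. These were pseudocounts of 0.1 and 0.5, no filter and a filter at 5 FPKM, rescaling to the same total, by median ratio or by quantiles, no variance trend, a robust variance model, library weights, each replicate left out, a replicate block and a threshold of 0.1. Between 339 and 557 genes had an unadjusted p under 0.05, or 260 with the filter at 5 FPKM. The median of all genes went from -0.01 to -0.09 when libraries were set to the same total. Libraries with the same replicate number did not share deviations from the group means (correlations of -0.04, 0.10 and -0.11), and with the replicate block 0 genes were higher and 0 lower, with a limma unadjusted p of 0.0105 and an adjusted p of 1.00 for Tap2. No symbol was repeated, so the choice of row had no alternative.

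The filter settings, the replicate block and the threshold of 0.1 cannot change a log2 fold change. The same holds without the variance trend and with the robust variance model. Values under these settings are counted among the 340 member values with all replicates kept, of which 332 kept their direction. Those that changed sign went to -0.020 for H2-K1 and -0.038 for H2-Q6 with the same total and to 0.051 for H2-T23 with quantiles. With library weights, H2-DMb1 went from 0.40 to -0.0020, H2-DMb2 from 0.085 to -0.065 and H2-Ke6 from -0.19 to 0.091. Under the same weights, H2-M3 went from -0.079 to 0.12 and H2-Q4 from -0.014 to 0.20. Leaving out 1 replicate changed the sign for 20 members, and the causes were not tested. Their ranges were B2m -0.27 to 0.17, Cd74 -0.46 to 0.066, Cd80 -0.14 to 0.57, Cd86 -0.028 to 0.36, H2-Aa -0.28 to 0.21, H2-DMa -0.15 to 0.31, H2-DMb1 -0.26 to 0.83, H2-DMb2 -0.24 to 0.29, H2-Eb1 -0.26 to 0.044, H2-K1 -0.26 to 0.38, H2-Ke6 -0.50 to 0.21, H2-M3 -0.58 to 0.38, H2-Oa -0.34 to 0.39, H2-Q4 -0.21 to 0.34, H2-Q6 -0.25 to 0.33, H2-Q7 -0.33 to 0.71, H2-T10 -0.10 to 0.87, H2-T23 -0.091 to 0.13, Tapbp -0.25 to 0.12 and Tapbpl -1.12 to 0.049. The other 9 kept their sign: Tap2 between -1.43 and -0.74, H2-Ab1 -0.77 and -0.079, H2-Ob -1.09 and -0.27, H2-Q2 -1.19 and -0.44, H2-D1 0.063 and 0.35, H2-K2 0.76 and 1.79, H2-Q5 0.069 and 1.48, H2-T24 0.020 and 0.82, and Tap1 0.069 and 0.77. Members under the filter in a setting have no value there: H2-K2, H2-M3, H2-Q2, H2-Q5, H2-T10, H2-T23 and Tapbpl at 5 FPKM, H2-Q2 with the same total or without control replicate 2, and H2-M3 without control replicate 3. With each replicate left out, the median was 0.06 to 0.38 for classical class I, -0.28 to -0.04 for classical class II, -0.058 to 0.40 for nonclassical class I and -0.25 to 0.27 for nonclassical class II.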

Other observations

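Genes for the presentation of lipid and metabolite antigens were low. Mr1, whose protein presents vitamin B metabolites to innate-like T cells, was at 2.71, 3.98 and 3.74 FPKM across control pools 1 to 3 and 1.70, 0.35 and 1.52 across ECS pools 1 to 3. All ECS libraries lay below all control libraries, as for 3.79% of the genes tested, and the log2 difference was -1.08 ± 0.49 (SE), with a limma unadjusted p of 0.0619 and an adjusted p of 1.00, so Mr1 was not called. Cd1d1, which presents lipids to natural killer T cells, was listed at 0 in control 1 and ECS 1, was at 8.94 FPKM in control 3 and was at most 0.530 in the other libraries, and Cd1d2 was listed at 0 in all 6.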
